A study of Mus musculus with 7 samples.

Results

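The mouse mitochondrial genome encodes 37 genes, and all of them had an entry in the islet count table, which held 48440 genes in all. They are 13 protein genes, 2 ribosomal RNA genes and 22 tRNA genes. They were taken by gene identifier on the mitochondrial chromosome, without a filter on measured values. The choice was made with earlier results of these data known. Following the mm10 annotation, the 28 genes on the plus strand are called heavy-strand genes and the 9 on the minus strand light-strand genes. The light-strand genes are mt-Nd6 and 8 tRNA genes.

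Islets came from female NOD.hALOX12 mice, a nonobese diabetic line in which human ALOX12 is expressed in place of mouse Alox15, under the control elements of the mouse gene. Both groups carried this replacement in the whole body. Treated mice received VLX-1005, an inhibitor of human 12-lipoxygenase, at 30 mg/kg daily by mouth for 4 weeks (3 libraries), and the others received vehicle (4 libraries), up to 10 weeks of age in the prediabetic stage. Isolated islets recovered overnight in culture, and polyadenylated RNA went into strand-specific libraries. Nothing in the labels ties a library to its own animal, and p-values measure the spread between these libraries, in part perhaps technical.

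Mitochondrial DNA is a small circle that is read from both strands into long precursor transcripts. The tRNA genes lie between most of the protein and ribosomal RNA genes, and cutting the precursors at the tRNAs releases the other RNAs. The protein genes encode subunits of respiratory chain complexes I, III and IV and of ATP synthase, which beta cells use to couple glucose oxidation to insulin release. Heavy-strand messages carry a short poly(A) tail. In human cells, the ND6 message of the light strand largely lacks one. Because both strands are transcribed over nearly their whole length, antisense RNA can arise opposite each gene.

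The sequences of the light-strand tRNA genes are shown because these 8 genes held nearly all tRNA counts. Capitals mark the anticodon, the 3 bases that read the codon. The bases are those of GENCODE M21 transcripts on mm10, a C57BL/6J reference, and not of NOD reads, and they run 5′ to 3′ on the minus strand.
mt-Te: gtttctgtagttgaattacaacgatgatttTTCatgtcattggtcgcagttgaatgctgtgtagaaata
mt-Tp: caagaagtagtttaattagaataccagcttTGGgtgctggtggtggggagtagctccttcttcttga
mt-Ty: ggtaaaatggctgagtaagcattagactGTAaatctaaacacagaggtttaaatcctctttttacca
mt-Ts1: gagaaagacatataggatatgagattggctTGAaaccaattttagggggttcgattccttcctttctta
mt-Tq: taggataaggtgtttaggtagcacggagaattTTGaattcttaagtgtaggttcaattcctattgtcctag
mt-Ta: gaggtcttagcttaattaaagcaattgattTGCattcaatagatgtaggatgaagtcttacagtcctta
mt-Tn: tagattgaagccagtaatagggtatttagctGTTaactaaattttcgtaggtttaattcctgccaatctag
mt-Tc: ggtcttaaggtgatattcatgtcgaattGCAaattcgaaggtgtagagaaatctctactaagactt

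The protein genes mt-Nd6 and mt-Nd5 meet tail to tail, and their last 60 bases are shown because one had the most counts of the light strand and the other the most of the heavy strand. Capitals mark the 14 bases that both genes use, each on its own strand, so that the capitals of one are the reverse complement of those of the other. The mt-Nd6 bases are chrM:13552-13611 on the minus strand and the mt-Nd5 bases are chrM:13506-13565 on the plus strand of mm10.
mt-Nd6: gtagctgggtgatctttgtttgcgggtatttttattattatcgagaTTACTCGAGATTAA
mt-Nd5: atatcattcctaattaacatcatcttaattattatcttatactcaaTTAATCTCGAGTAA

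Libraries held 1024586 to 1430785 counts, and a count of 0 allows up to 3 counts, or 2.04 to 2.87 CPM (counts relative to library size, scaled here with edgeR's TMM factors). Alox15, the replaced gene, had 1, 0 and 0 counts in the VLX-1005 libraries and 0 in each vehicle library. Ins2, which encodes insulin, had 210, 134 and 104 counts in the VLX-1005 libraries, against 197, 166, 168 and 226 in the vehicle libraries. All 10 endocrine markers were detected and together took 0.0990% to 0.178% of a VLX-1005 library and 0.119% to 0.137% of a vehicle library. Ins2 averaged 117 CPM with VLX-1005 and 155 CPM with vehicle, against 10210 and 9652 CPM for the mitochondrial gene mt-Nd6. Detection at such levels does not by itself establish islet identity or the strand that was counted. The 8 acinar markers had 46 to 114 counts in VLX-1005 libraries and 42 to 117 in vehicle libraries, with Amy2a5 at 0. The 5 endothelial and stromal markers had 9 to 13 counts in VLX-1005 libraries and 2 to 7 in vehicle libraries. The 6 immune markers had 318 to 395 counts in VLX-1005 libraries and 295 to 353 in vehicle libraries, and 4 of them were detected. Most of these counts lay on Csf1r, a macrophage gene, at 284 ± 18.0 CPM with VLX-1005 and 267 ± 32.4 CPM with vehicle (SD, n = 3 and 4), while the B cell gene Ms4a1 was among those at 0. The exons of Csf1r overlap those of Hmgxb3 on the other strand. Whether these markers bear on the values below was not tested. In bulk RNA, fewer cells of a type and less RNA per cell cannot be told apart. The strand setting of the authors' counting is not given in the sources used here. A count on any gene, markers included, and one from RNA of the opposite strand at the same place therefore cannot be told apart. Each gene is named as counted.

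Counts on the mitochondrial genes lay almost wholly on the light strand. Over the 7 libraries, the 37 genes had 98004 counts, of which the 9 light-strand genes held 94465 and the 28 heavy-strand genes 3539. The light strand held 96.0%, 97.4% and 96.5% of these counts in the VLX-1005 libraries, against 94.98%, 95.6%, 97.8% and 96.9% in the vehicle libraries. Per kilobase of annotated gene, light-strand counts were 255 to 607 times heavy-strand counts, a mean log2 ratio of 8.57 ± 0.44 (SD, n = 7). The ratio favoured the light strand in 7 of 7 libraries (two-sided exact sign-flip permutation test, p = 0.0156, the smallest that 7 libraries allow). All 7 come from the same count table, whose strand setting is not given. The p-value therefore cannot show which strand the RNA came from. Without mt-Nd6 the ratio was 47.7 to 114. With protein genes alone it was 364 to 867.

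**Figure D1:**
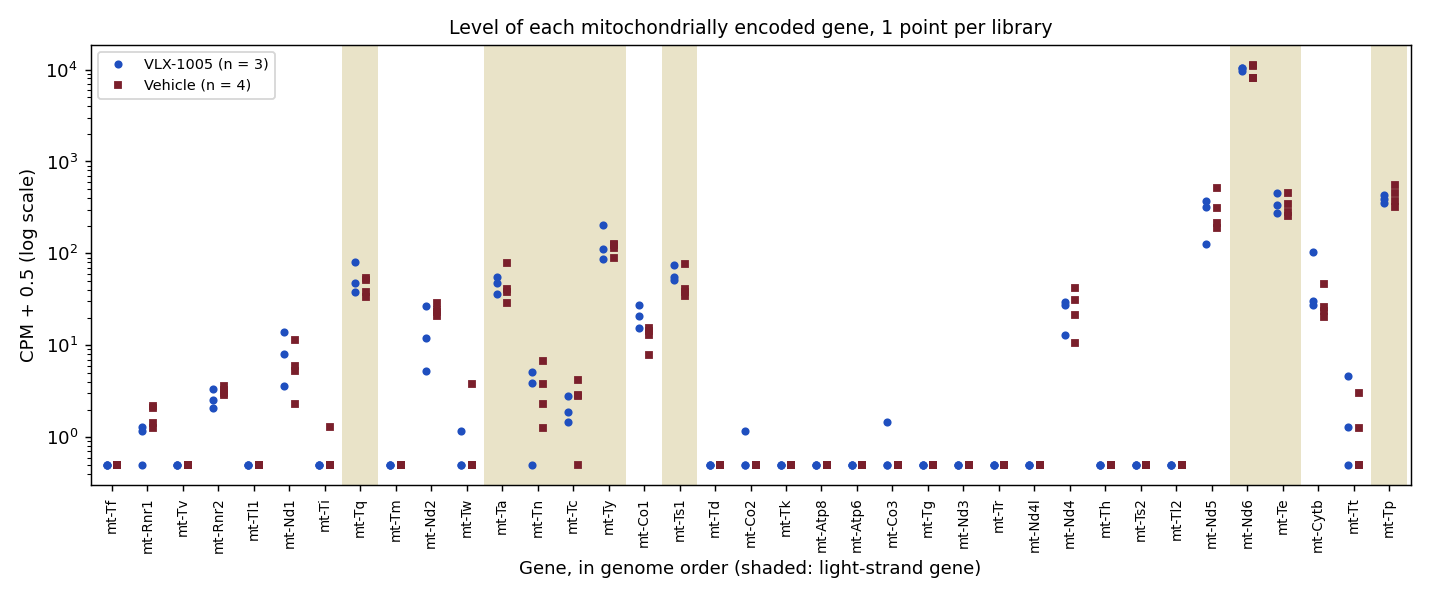
Level of each of the 37 mitochondrially encoded genes as CPM + 0.5 on a log axis, with genes in genome order, 1 circle per VLX-1005 library (n = 3) and 1 square per vehicle library (n = 4), and shading on light-strand genes. mt-Nd6 stands at 9738 to 10471 CPM with VLX-1005 and at 8155 to 11304 CPM with vehicle, while 15 heavy-strand genes lie at 0 in every library.

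mt-Nd6, a complex I subunit and the only protein gene of the light strand, held 87.4% of all mitochondrial counts. It had 15301, 10187 and 13490 counts in the VLX-1005 libraries, against 13568, 10600, 12025 and 10464 in the vehicle libraries. It ranked from 8 to 12 among all 48440 genes by counts in a library. The gene spans bases 13552 to 14070 and is 519 bases long. Its level per length averaged 19672 CPM per kilobase with VLX-1005 and 18597 with vehicle.

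Per length, the tRNA genes mt-Tp and mt-Te had the next highest mean levels after mt-Nd6. mt-Te, the glutamate tRNA gene, begins at the base after mt-Nd6 on the map (14071 to 14139) and had 491, 285 and 587 counts in the VLX-1005 libraries, against 549, 365, 373 and 324 in the vehicle libraries. mt-Tp, the proline tRNA gene at 15356 to 15422, had 514, 446 and 502 counts in the VLX-1005 libraries, against 538, 415, 603 and 470 in the vehicle libraries. Together mt-Te and mt-Tp held 73.2% of light-strand tRNA counts.

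The other light-strand tRNA genes formed a graded set. mt-Ty, for tyrosine (5260 to 5326), had 164, 90 and 264 counts in the VLX-1005 libraries and 151, 147, 136 and 112 in the vehicle libraries. mt-Ts1, a serine tRNA gene (6870 to 6938), had 75, 77 and 70 counts with VLX-1005, against 91, 49, 44 and 43 with vehicle. These spreads overlapped in both genes, with VLX-1005 replicate 3 high for mt-Ty and vehicle replicate 1 high for mt-Ts1. mt-Tq, for glutamine (3772 to 3842), had 69, 39 and 102 counts with VLX-1005, against 64, 66, 36 and 48 with vehicle. mt-Ta, for alanine (5018 to 5086), had 52, 57 and 60 counts with VLX-1005, against 49, 49, 86 and 36 with vehicle. The groups of mt-Tq, mt-Ta and mt-Ts1 could not be ordered among themselves, because their ranges overlapped.

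The lowest light-strand genes were mt-Tn, for asparagine (5089 to 5159), and mt-Tc, for cysteine (5192 to 5257). A gap of 32 bases lies between them, which is known as the light-strand origin of replication. mt-Tn had 5, 0 and 6 counts with VLX-1005, against 4, 1, 2 and 8 with vehicle. mt-Tc had 2, 1 and 3 counts with VLX-1005, against 0, 3, 4 and 3 with vehicle. Their direct neighbours on the same strand, mt-Ta and mt-Ty, had 389 and 1064 counts over the 7 libraries, against 26 for mt-Tn and 16 for mt-Tc, although all 4 genes are 66 to 71 bases long.

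The strand difference was also present within the tRNA genes, which are alike in length. The 8 light-strand tRNA genes had 995 to 1594 counts in a library and 8830 in all. The 14 heavy-strand tRNA genes had 0 to 7 counts in a library and 17 in all, and 11 of them were at 0 in every library. The 3 with any count were mt-Tt with 11 counts, mt-Tw with 5 and mt-Ti with 1. mt-Tt is annotated directly beside mt-Tp on the other strand, and mt-Ti overlaps mt-Tq by 3 bases.

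Heavy-strand counts lay mainly on mt-Nd5, the complex I subunit whose end overlaps mt-Nd6. mt-Nd5 (11742 to 13565) had 544, 131 and 413 counts in the VLX-1005 libraries, against 611, 408, 204 and 275 in the vehicle libraries. It held 79.0%, 43.2% and 74.5% of heavy-strand counts in the VLX-1005 libraries, against 77.0%, 75.8%, 69.2% and 74.9% in the vehicle libraries. VLX-1005 replicate 2 lay apart from the others, and its 95% Wilson interval of 37.8% to 48.9% did not reach the others, the lowest of which began at 63.7%. Such intervals cover counting error only.

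The same library stood apart for mt-Cytb, the complex III subunit (14145 to 15288). mt-Cytb had 40, 108 and 38 counts in the VLX-1005 libraries, against 55, 30, 28 and 25 in the vehicle libraries. Its count in VLX-1005 replicate 2 was the highest of the 7, while mt-Nd5 was lowest there. The complex I subunit mt-Nd2 (3914 to 4951) was lowest there as well, with 17, 5 and 34 counts in the VLX-1005 libraries, against 34, 29, 26 and 26 in the vehicle libraries.

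Among the remaining complex I subunits, mt-Nd4 (10167 to 11544) had 43, 13 and 35 counts in the VLX-1005 libraries, against 50, 40, 23 and 13 in the vehicle libraries. mt-Nd1 (2751 to 3707) had 11, 14 and 4 counts with VLX-1005, against 13, 7, 2 and 6 with vehicle, and did not pass the filter on low counts. mt-Co1, the catalytic subunit of complex IV (5328 to 6872), had 22, 28 and 26 counts with VLX-1005, against 18, 18, 8 and 16 with vehicle. Its lowest VLX-1005 library and its highest vehicle library were at 14.98 and 14.997 CPM, so the groups met there. mt-Co2 and mt-Co3, also of complex IV, had 1 count each over the 7 libraries, both in VLX-1005 libraries. The ATP synthase genes mt-Atp6 and mt-Atp8 and the complex I genes mt-Nd3 and mt-Nd4l had 0 counts, which allows up to 3 counts over the 7 libraries together.

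The ribosomal RNA genes were near the floor. mt-Rnr1, the small subunit RNA, had 1, 0 and 1 counts in the VLX-1005 libraries and 2, 1, 1 and 2 in the vehicle libraries. mt-Rnr2, the large subunit RNA, had 3, 3 and 2 counts in the VLX-1005 libraries and 3, 4, 3 and 3 in the vehicle libraries. No fold change was taken from counts this low.

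The heavy-strand protein genes at or near 0 lie side by side on the map, and a stretch with nearly the same sequence exists on chromosome 1. The annotation lists 7 pseudogenes there (mm10 chromosome 1, 24611535 to 24616197) that match mt-Co1 to mt-Nd4 at 99.7% to 100% identity, equal to bases 6390 to 11042 of the mitochondrial genome. Of the mitochondrial genes, 11 lie wholly within that stretch, 10 of them on the heavy strand. Those 10 had 2 counts in all, and the 18 heavy-strand genes not wholly within it had 3537, of which mt-Nd5 held 2586. Low counts were not limited to the stretch. Outside it, mt-Rnr1 and mt-Rnr2 had 8 and 21 counts over the 7 libraries. The heavy-strand tRNA genes mt-Tf, mt-Tv, mt-Tl1, mt-Tm, mt-Th, mt-Ts2 and mt-Tl2, also outside it, had 0. The light-strand gene within the stretch, mt-Ts1, had 449 counts. It lies between the annotated copies of mt-Co1 and mt-Co2, and its sequence was not compared with chromosome 1. The 7 pseudogenes had 28 counts over the 7 libraries, 24 of them on Gm28438, the copy of mt-Nd3.

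The 5 heavy-strand protein genes covered over at least 98% of their length (mt-Co2, mt-Atp6, mt-Co3, mt-Nd3 and mt-Nd4l) had 2 counts together. mt-Co1, covered over 31.3%, had 136 counts and mt-Nd4, covered over 63.6%, had 217. The 5 with no such copy in the annotation (mt-Nd1, mt-Nd2, mt-Nd5, mt-Cytb and mt-Atp8) had 3138, of which mt-Nd5 held 2586. Of these 5 genes, mt-Atp8 was at 0, and it is the one that lies within the stretch above, between annotated pseudogenes. How reads with more than 1 matching place were counted is not given in the sources used here, and the part of these copies in the low counts was not tested. mt-Nd6 has an annotated copy at 93.6% identity, Gm11408, which had 8 counts.

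**Figure D2:**
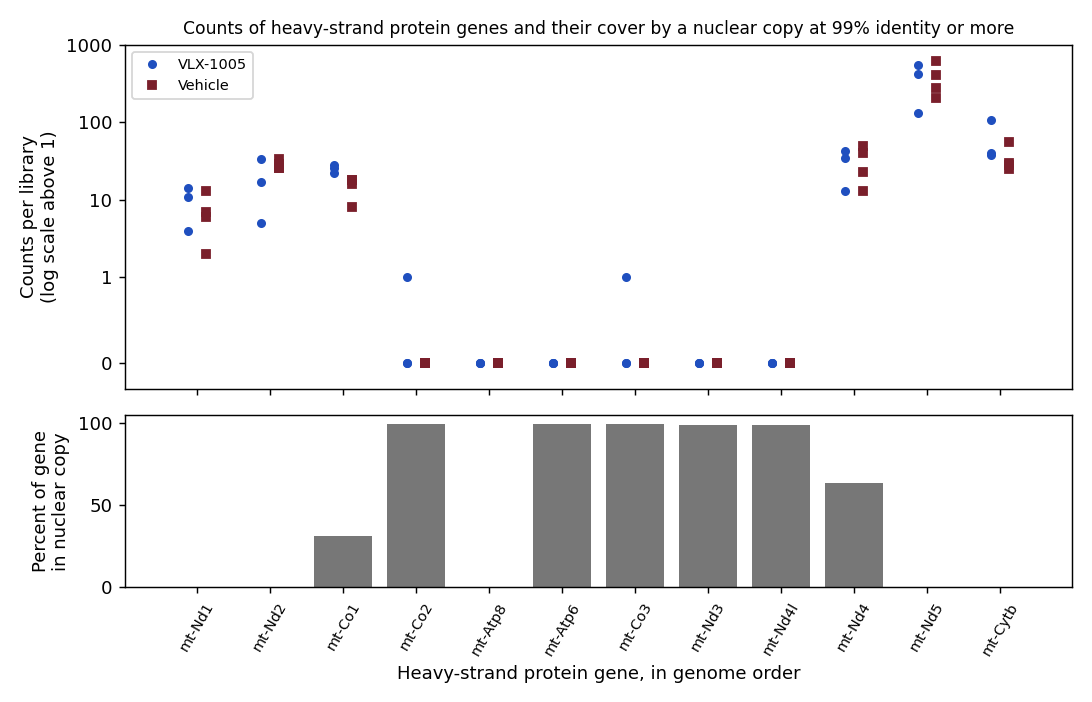
Upper panel: counts of each heavy-strand protein gene in each VLX-1005 library (circles, n = 3) and vehicle library (squares, n = 4), with a log scale above 1. Lower panel: percent of the gene within a nuclear copy at 99% identity or more. The 5 genes covered over at least 98% and mt-Atp8, which lies among them with no annotated copy of its own, had at most 1 count in any library, while mt-Nd5, with no such copy, had 131 to 611.

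The share of a library counted on the mitochondrial genes was compared between VLX-1005 and vehicle. Since mt-Nd6 held 87.4% of these counts, the share speaks mainly for that gene and not for mitochondrial RNA as a whole. The 37 genes took 1.21%, 1.12% and 1.22% of the VLX-1005 libraries, against 1.35%, 0.935%, 1.18% and 0.906% of the vehicle libraries. The VLX-1005 values lay inside the vehicle range. The means were 1.19% ± 0.0565 with VLX-1005 (SD, n = 3) and 1.09% ± 0.211 with vehicle (n = 4), and did not differ beyond the spread (two-sided exact permutation test, p = 0.429, adjusted over 7 measures p = 0.75). The smallest p that these group sizes allow is 0.0286.

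Neither strand's share differed beyond the spread between libraries. Light-strand genes took 1.15% ± 0.0475 of a library with VLX-1005 and 1.05% ± 0.199 with vehicle (exact permutation p = 0.371, adjusted p = 0.75). Heavy-strand genes took 0.0482%, 0.0296% and 0.0433% of the VLX-1005 libraries, against 0.0677%, 0.0411%, 0.0256% and 0.0280% of the vehicle libraries. Their means were 0.0404% ± 0.00964 with VLX-1005 and 0.0406% ± 0.0193 with vehicle (exact permutation p = 0.971). The log2 ratio of light-strand to heavy-strand counts was 4.86 ± 0.31 with VLX-1005 and 4.79 ± 0.56 with vehicle (SD, n = 3 and 4, exact permutation p = 0.8286, adjusted p = 0.967).

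**Figure D3:**
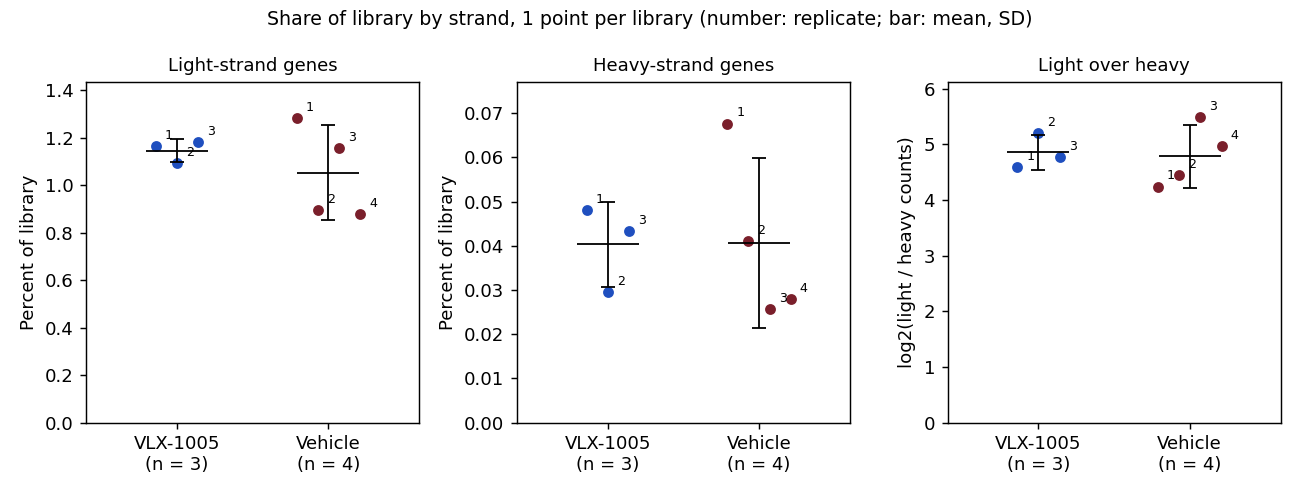
Percent of each library on light-strand and on heavy-strand genes, and the log2 ratio of their counts, with 1 point per library numbered by replicate and bars at the mean ± SD, VLX-1005 (n = 3) left of vehicle (n = 4). The VLX-1005 libraries lie within the range of the vehicle libraries in all 3 panels.

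By kind of gene, protein genes took 1.08% ± 0.0494 of a library with VLX-1005 and 0.993% ± 0.189 with vehicle (exact permutation p = 0.4, adjusted p = 0.75). Genes for tRNAs took 0.106% ± 0.0162 with VLX-1005 and 0.0998% ± 0.0215 with vehicle (exact permutation p = 0.657, adjusted p = 0.92). The ribosomal RNA genes took 0.000269% ± 3.04e-05 with VLX-1005 and 0.000385% ± 3.24e-05 with vehicle, without overlap (exact permutation p = 0.0286, the lowest that these group sizes allow, and 0.2 after adjustment). That difference rests on 3 to 4 counts per VLX-1005 library and 4 to 5 per vehicle library, too few to measure a change. The Wilson intervals of all 7 libraries overlapped, which at so few counts does not test a difference between groups.

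Single genes were compared in an edgeR fit over the whole table, in which 12 of the 37 genes passed the filter on low counts (7 of the light strand, 5 of the heavy strand). None of the 12 was called at an adjusted p below 0.05 by edgeR and 0 of 12 had an unadjusted p below 0.05. DESeq2 called 0 as well, with 0 at an unadjusted p below 0.05. Over all 4218 genes tested, 100 or 2.37% were called, 99 of them higher with VLX-1005, and 759 had an unadjusted p below 0.05. Of the 12, 0 had groups that did not overlap, against 17.6% of all tested genes.

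The 12 log2 fold changes of VLX-1005 over vehicle were positive for 7 genes and negative for 5, with a median of 0.09, and the median of all tested genes was -0.007. Light-strand genes had 5 positive and 2 negative values with a median of 0.09, and heavy-strand genes 2 and 3 with a median of -0.15. Standard errors ran from 0.13 to 0.49, and edgeR adjusted p from 0.293 to 0.977. Precision was greatest for mt-Nd6, with 0.08 ± 0.13 on the log2 scale (SE, 95% interval -0.20 to 0.37, edgeR adjusted p = 0.794). The intervals of the heavy-strand genes were wider.

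**Figure D4:**
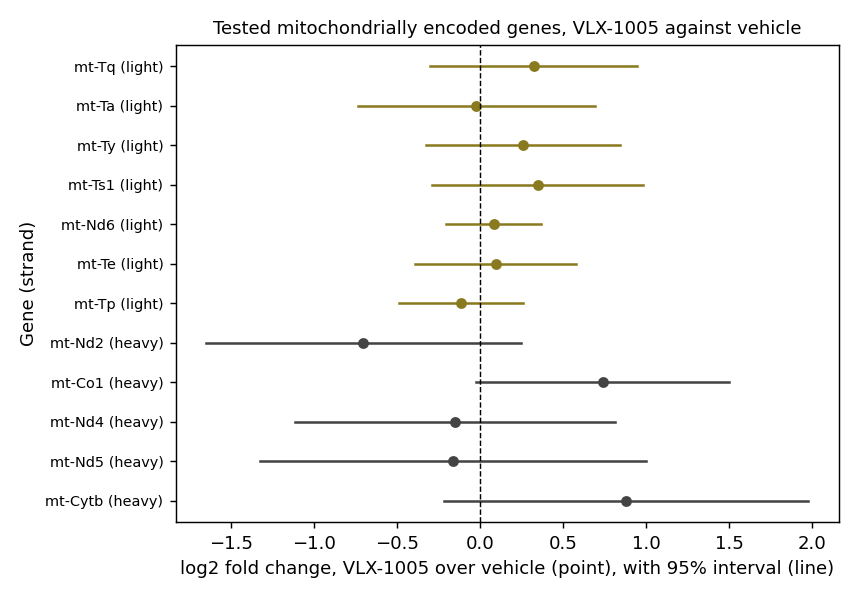
Log2 fold change of VLX-1005 over vehicle (points) with its 95% interval (lines) for the 12 tested mitochondrially encoded genes, light strand above heavy strand. Every interval includes 0, and the interval is narrowest for mt-Nd6 at 0.08 (-0.20 to 0.37).

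The tRNA genes of the light strand gave values on both sides of 0. mt-Ts1 had 0.34 ± 0.29 (edgeR adjusted p = 0.565), mt-Tq 0.32 ± 0.29 (0.582) and mt-Ty 0.26 ± 0.27 (0.645). mt-Te had 0.09 ± 0.22 (edgeR adjusted p = 0.872), mt-Ta -0.02 ± 0.33 (0.977) and mt-Tp -0.12 ± 0.17 (0.772). Of these 6, all except mt-Ts1 changed sign when 1 library was left out.

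Among heavy-strand genes, mt-Cytb had 0.88 ± 0.49 (95% interval -0.22 to 1.98, edgeR adjusted p = 0.382). That value rested on VLX-1005 replicate 2, and without it was -0.003. mt-Co1 had 0.74 ± 0.35 (edgeR adjusted p = 0.293) and mt-Nd2 -0.71 ± 0.44 (0.423), and both kept their sign with each library left out. The size of the mt-Nd2 value depended on single VLX-1005 libraries, since it was -1.47 without replicate 3 and -0.33 without replicate 2. mt-Nd5 had -0.16 ± 0.48 (edgeR adjusted p = 0.896) and mt-Nd4 -0.15 ± 0.44 (0.892). Without VLX-1005 replicate 2 they were 0.18 and 0.13, and without vehicle replicate 1 they were 0.19 and 0.17.

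The nuclear genes that work with the mitochondrial genome were read from the same fit. The respiratory chain list holds the nuclear subunits that assemble with the proteins above. Of its 87 genes 80 had counts and 10 were tested, with 0 called by edgeR in either direction, 5 positive and 5 negative values and a median log2 fold change of 0.02. Of the 10, 2 had an unadjusted p below 0.05, against 759 of all 4218 tested genes. The ATP synthase subunit gene Atp5j was among them, with 0.46 ± 0.17 (edgeR adjusted p = 0.194). The complex I genes Ndufa2 and Ndufs1 had -0.75 ± 0.39 and -0.41 ± 0.38 (edgeR adjusted p = 0.335 and 0.607). The exons of Atp5j, Ndufa2 and Ndufs1 overlap those of Gabpa, Tmco6 and Eef1b2 on the other strand.

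Of 25 genes for maintaining and transcribing mitochondrial DNA, 20 had counts and 8 were tested, with a median log2 fold change of 0.27. Of the 8, 1 was called higher and 0 lower, against 2.37% called over all tested genes. An unadjusted p below 0.05 was found for 2 of the 8. The called gene was Mgme1, a nuclease that trims mitochondrial DNA, whose exons overlap those of Snx5. Mgme1 had 121, 186 and 66 counts in the VLX-1005 libraries, against 26, 28, 17 and 29 in the vehicle libraries. On the log2 scale it was higher by 2.33 ± 0.38 (edgeR adjusted p = 0.0154), with no overlap between the groups. Without any one of the vehicle libraries the adjusted p was 0.0514 to 0.067. The termination factor family gene Mterf3 had 0.95 ± 0.32 (edgeR adjusted p = 0.162), the polymerase gene Polg 1.43 ± 0.81 (0.384) and Tfb1m, which methylates the small ribosomal RNA, 0.25 ± 0.28 (0.672). These 3 lie opposite Ptdss1, Fanci and Tiam2.

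Of 31 genes for mitochondrial RNA processing, stability and decay, 25 had counts and 10 were tested, with 0 called by edgeR, 2 at an unadjusted p below 0.05, and a median log2 fold change of -0.12. Ptcd1 had -0.33 ± 0.13 (edgeR adjusted p = 0.198) and Trnt1, which adds the CCA end to tRNAs, -0.39 ± 0.15 (0.199). Mrm1, which methylates the large ribosomal RNA, had 0.42 ± 0.24 (edgeR adjusted p = 0.376), and the poly(A) trimming enzyme gene Pde12 had 0.64 ± 0.48 (0.509). Ptcd1 lies opposite Bud31, Trnt1 opposite Crbn and Pde12 opposite Arf4.

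Of 32 genes for translation factors and tRNA synthetases, 27 had counts and 11 were tested. These 11 had 3 positive and 8 negative values and a median of -0.11. Among them, 1 was called higher and 0 lower, against 2.37% called over all tested genes. An unadjusted p below 0.05 was found for 3 of the 11. The called gene was Fars2, the phenylalanine tRNA synthetase of mitochondria, whose exons overlap those of Nrn1. Fars2 had 91, 89 and 38 counts in the VLX-1005 libraries, against 11, 9, 12 and 13 in the vehicle libraries, higher by 2.65 ± 0.37 on the log2 scale (edgeR adjusted p = 0.00588) with no overlap. The tRNA it charges is encoded by mt-Tf, which had 0 counts in all 7 libraries. The initiation factor gene Mtif3 had -0.24 ± 0.11 (edgeR adjusted p = 0.254) and the glutamate synthetase gene Ears2 0.74 ± 0.49 (0.454). They lie opposite Gtf3a and Ubfd1.

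Of 78 mitochondrial ribosomal protein genes, 65 had counts and 13 were tested, with 0 called by edgeR, 2 at an unadjusted p below 0.05, 6 positive and 7 negative values and a median of -0.05. Mrpl48 had 0.49 ± 0.14 (edgeR adjusted p = 0.0992), Mrpl46 -0.46 ± 0.17 (0.194), Mrpl38 -0.48 ± 0.25 (0.346) and Mrpl47 -0.17 ± 0.11 (0.418). Mrpl48, Mrpl46 and Mrpl47 lie opposite Rab6a, Mrps11 and Ndufb5. Over these 5 lists, 46 of the 52 tested genes had an opposite-strand gene over their exons. The same count over all tested genes is not given here, so it cannot be read as particular to these lists.

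The genes whose TMM log2 CPM over the 7 libraries was most like that of mt-Nd6, among 3680 with a mean of at least 10 CPM, were Gm2366 (Pearson r = 0.94), Gm16573 (0.92), Plcg1 (0.91), Gfer (0.90) and Pgm3 (0.90). The 7 libraries, their depth and scaling factors are shared by all of these values, and with 3680 genes compared over 7 points the correlations are a description only. Gm2366 and Gm16573 are annotated as antisense genes and lie opposite Fat1 and Parp4. Plcg1 lies opposite Zhx3 and Pgm3 opposite Dop1a.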

How the data were processed

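RNA of 7 islet libraries was analysed. The values the authors deposited are whole-number counts per Ensembl gene, without normalization. Their notes name Trimmomatic, FastQC, HTSeq and DESeq2 and the build mm10, and the study's methods name HISAT2. For the strand setting and tool versions, the sources used here give nothing. Identifiers were matched to GENCODE M21 (48058 of 48440 rows), which gave strand, position and length.

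The whole table was fitted with edgeR 4.0.16 (R 4.3.3) using the quasi-likelihood test, TMM factors, filterByExpr and no covariate, with Benjamini-Hochberg adjustment over 4218 genes and calls at 0.05. On simulated data the fit was checked against known changes. Fold changes are VLX-1005 over vehicle, with library totals of 1024586 to 1430785. Shares were compared with two-sided exact permutation tests over 35 regroupings, and intervals are Wilson 95%. Transcripts were compared with the mitochondrial genes by blastn 2.17.0 (at least 100 bases at 90% identity) to find nuclear copies.

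The genes named are all 37 members, up to 4 tested genes of each list by smallest p, label checks, and up to 5 rows most like mt-Nd6. Some genes under this rule are not reported here. Gm11408 and Gm28438 were chosen after their values were seen. Members and lists were chosen with earlier results of these data known. Alternatives were RLE, upper quartile, library total and non-mitochondrial TMM scaling, other filters, DESeq2 1.42.0, a replicate block, omission of each library, other denominators and other members. Added after seeing the data were the ratio without mt-Nd6, the omission of each library for the light-against-heavy level within libraries, the 0.5 counts in the otherwise planned tRNA ratio, and the blastn search.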

Additional observations from a re-analysis of the deposited data

Results flagged for a closer look

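In the vehicle libraries, mt-Ts1 had 75.8 CPM in replicate 1, against 33.6 to 40.1 CPM in the other vehicle libraries, a gap of 0.847 of the group's range. Of 19 measures examined for a vehicle library far from the other vehicle libraries, 1 stood out, and chance gives about 1 in 20. This count does not cover the VLX-1005 libraries. The VLX-1005 libraries, at 51.1 to 73.6 CPM, lay between vehicle replicate 1 and the others. Without vehicle replicate 1 the log2 fold change of mt-Ts1 was 0.68 (edgeR adjusted p = 0.244), and 0.34 with it (0.565). It was not called either time.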

How the results depend on the processing

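No mitochondrially encoded gene was called under any of 15 alternative fits, with 0 to 2 of them at an unadjusted p below 0.05, while calls over all genes numbered 100 in the reported fit, 183 with DESeq2, 164 with a filter at 1 CPM, 263 with no filter, 19 with the replicate block and 14 to 203 with a library left out. The replicate numbers did not pair the libraries (correlations of same-numbered libraries of -0.0348, -0.0196 and 0.0879). With the replicate block, mt-Te was -0.026 on the log2 scale, the tRNA share differed by -0.000371 percentage points, and Fars2 had 2.61 with an edgeR adjusted p of 0.0538, above the threshold.

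With a library left out, log2 fold changes ran from -0.055 to 0.52 for mt-Tq, -0.19 to 0.35 for mt-Ta, -0.19 to 0.49 for mt-Ty, -0.41 to 0.17 for mt-Nd4, -0.45 to 0.19 for mt-Nd5, -0.14 to 0.28 for mt-Te, -0.0027 to 1.21 for mt-Cytb and -0.22 to 0.039 for mt-Tp. mt-Ta was 0.028 with library totals alone. Differences in share ran from 0.0304 to 0.178 percentage points for all 37 genes, 0.0349 to 0.169 for the light strand, -0.00525 to 0.00876 for the heavy strand and -0.00304 to 0.0144 for tRNA genes, and the log2 ratio of the strands from -0.11 to 0.30. The cause was not tested. The light strand exceeded the heavy strand under every alternative run, with a mean log2 ratio of 4.82 for counts not divided by length to 10.28 for tRNA genes alone. Mrpl48 was called without VLX-1005 replicate 3 (0.62, edgeR adjusted p = 0.0161). At 3 counts or fewer per library, as on most heavy-strand genes, no change could be measured.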
